A study of Mus musculus with 6 samples.

Results

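The genes described here carry a cell through G2, mitosis and cytokinesis. They are 50 mouse genes taken by name: the proliferation antigen Mki67 and topoisomerase Top2a, mitotic cyclins with their kinase and phosphatases, mitotic kinases, the spindle checkpoint, anaphase promotion, kinesin motors, kinetochore and chromosomal passenger proteins, cytokinesis factors, condensin subunits, and the transcription factors Foxm1 and Mybl2. All 50 were found by exact symbol among the 38216 symbols of the deposited table. The rule that names them uses no measured value, but they were chosen with earlier results of these data known.

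RNA came from splenic cells of C57BL/6 mice aged 28 days after birth, and every mouse carried the IL21-VFP reporter, in which fluorescence marks transcription of the cytokine gene Il21. CD4+ cells were sorted into 3 pools of 2 libraries each. ACT IL21 cells carried the reporter signal and the costimulatory receptor ICOS (VFP+ICOS+), ACT cells carried ICOS alone (VFP-ICOS+), and N cells carried neither (VFP-ICOS-). The labels do not tie the paired libraries of a pool to different animals, so the spread behind each p-value is that between these libraries and may be only technical. Values are TPM, transcript abundance per transcript length scaled to a fixed total per library, and the read depth behind them is unknown.

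The sort was checked on its own markers. Il21 was at 44.48 and 51.87 TPM in ACT IL21, at 0 and 1.26 TPM in ACT, and was listed at 0 in both N libraries. Icos was at 184.97 and 226.73 TPM in ACT IL21, 254.1 and 241.35 TPM in ACT, and 35.67 and 31.92 TPM in N. Each library held between 12095 and 12396 symbols at 1 TPM or more.

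As background, most of these genes are silent in resting lymphocytes and are transcribed late in the cell cycle, after DNA replication. Cyclin A and cyclin B proteins activate the kinase Cdk1 and drive the cell into mitosis, kinesins and kinetochore proteins build the spindle and attach chromosomes to it, and the anaphase-promoting complex then destroys securin and cyclins so that the cell can divide. In quiescent cells the MuvB complex holds many of these promoters off through a short element called the cell cycle homology region (CHR), and with B-Myb and FoxM1 it later turns them on. CCAAT boxes bound by the factor NF-Y often lie upstream of a CHR. Naive T cells rarely divide, and activated T cells enter rapid rounds of division.

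The promoters of the members are shown because the shared late timing is usually traced to these elements. RefSeq promoter windows (GRCm38.p6), each from 250 bases before the start of transcription to 50 bases after it, were matched by symbol for 42 of the 50 members. These 42 members had 44 windows. Aurkb, Ccna2, Cdc25c, Foxm1, Incenp, Kif20a, Smc4 and Tpx2 had no window in the table used. The 4 stretches that follow run from -150 to -1 before the start (position 1 is the first transcribed base) in members with large differences between pools. Capitals mark the CHR letters TTTGAA or TTCGAA and the CCAAT box, in either orientation, so that TTCAAA and ATTGG are matches on the other strand. They lie at chr7:135716380-135716529 (minus strand) for Mki67, chr11:99024190-99024339 (minus strand) for Top2a, chr19:37376232-37376381 (plus strand) for Kif11 and chr9:122950931-122951080 (plus strand) for Kif15.
Mki67: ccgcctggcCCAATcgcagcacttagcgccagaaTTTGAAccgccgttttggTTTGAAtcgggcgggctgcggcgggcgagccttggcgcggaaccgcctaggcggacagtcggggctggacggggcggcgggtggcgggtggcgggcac
Top2a: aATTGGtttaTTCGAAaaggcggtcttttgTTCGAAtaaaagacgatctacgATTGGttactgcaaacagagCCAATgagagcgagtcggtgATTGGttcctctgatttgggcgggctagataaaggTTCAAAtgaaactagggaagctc
Kif11: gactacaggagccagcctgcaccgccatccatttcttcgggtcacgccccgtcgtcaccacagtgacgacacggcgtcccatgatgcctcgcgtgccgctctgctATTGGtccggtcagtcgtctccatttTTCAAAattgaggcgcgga
Kif15: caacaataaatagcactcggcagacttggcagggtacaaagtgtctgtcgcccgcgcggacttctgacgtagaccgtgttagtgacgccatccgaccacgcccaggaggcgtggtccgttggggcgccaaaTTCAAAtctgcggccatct
Mki67 had a pair of TTTGAA letters starting at -116 and -98. In Kif11 and Kif15 the CHR letters started at -19, close to the start, and in Kif15 they directly followed a match to the E2F letters TTTGGCGC at -27. Top2a had 3 CHR matches in this stretch, at -140, -120 and -23, among 4 CCAAT boxes.

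In 6 other members past the threshold in at least 1 comparison, CHR letters lay just after the start of transcription. Cenpf held TTTGAA from position 3 to 8 and is not printed. The other 5 are shown as 30 bases around the start, at chr15:99651644-99651673 (minus strand) for Racgap1, chr11:40733422-40733451 (minus strand) for Hmmr, chr9:70421543-70421572 (minus strand) for Ccnb2, chr2:127831838-127831867 (minus strand) for Bub1 and chr2:131186933-131186962 (plus strand) for Cdc25b.
Racgap1: ctgtgATTGGctggtgcgtgatTTTGAAcc
Hmmr: tgagggggaaagttgaggtaaaTTTGAAtt
Ccnb2: atagtgcgtcagcggcgcggtaTTTGAAtc
Bub1: acaagtgcggctgcgcggggaaTTCGAAtc
Cdc25b: ggcggcgctgccgctgttatttTTCGAAta
Racgap1, Hmmr and Ccnb2 held the common form TTTGAA, while TTCGAA stood in Bub1 and Cdc25b.

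Searched on both strands, TTTGAA was in 31 of the 44 member windows (70.5%) and in 17.9% of all 32851 windows. It was in 55.9% of the windows of a second list of 62 mitotic genes and in 10.3% of those of 61 genes of DNA replication and the G1/S transition. CCAAT was in 72.7% of member windows, against 37.4% of all windows, and both TTTGAA and CCAAT were in 59.1%, against 7.0% of all windows. TTCGAA, which reads the same on both strands, was in 9.1% of member windows and 1.6% of all. The E2F letters TTTGGCGC and TTTCCCGC were in 4.5% and 2.3% of member windows, and each was in 15.5% of replication and G1/S windows. No 2 different motifs shared bases in a member window. Of 43 TTTGAA matches in member windows, 30 lay from -50 on. Birc5, Mad2l1, Melk, Mybl2, Ncaph, Nuf2 and Pttg1 had none of these letters in their windows. TTTGAA was present for 9 of the 13 members with a window that were past the threshold in some comparison, and for 20 of the 29 that were past it in none.

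**Figure D1:**
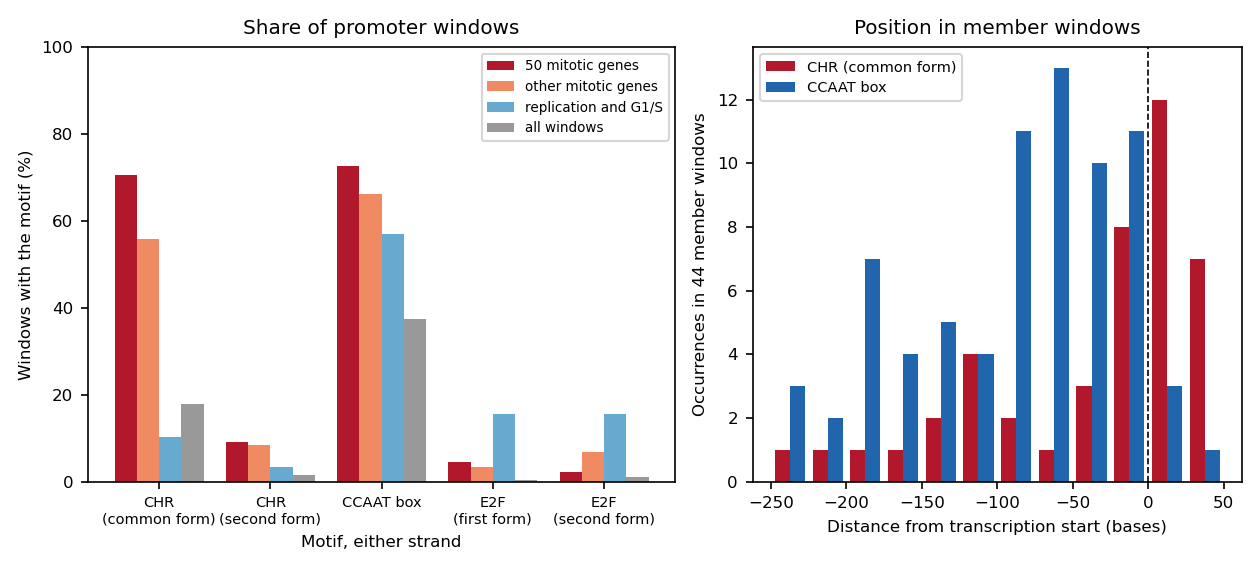
Left, percent of promoter windows that hold each motif on either strand, for the 50 mitotic genes, 62 other mitotic genes, 61 replication and G1/S genes, and all windows (CHR common form is TTTGAA, second form TTCGAA; E2F first form is TTTGGCGC, second form TTTCCCGC). Right, number of matches by distance from the start of transcription in the 44 member windows. The common CHR form was in 70.5% of member windows against 17.9% of all windows, and 30 of its 43 matches lay from -50 on.

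Apart from Smc4, these genes together held more RNA in ACT IL21 cells and in ACT cells than in N cells. With Smc4 included, the mean sums were 1566 TPM in ACT IL21, 1378 TPM in ACT and 1630 TPM in N. Without Smc4, which is described last, the other members summed to 901.2 and 892.4 TPM in ACT IL21, 661.3 and 652.9 TPM in ACT, and 314.8 and 315.8 TPM in N. The sums did not overlap between pools, and their means stood 2.84 times higher in ACT IL21 than in N, 2.08 times higher in ACT than in N, and 1.36 times higher in ACT IL21 than in ACT. In these bulk pools a larger share of dividing cells and more RNA per cell cannot be told apart. Members with a mean of at least 10 TPM numbered 29 in ACT IL21, 23 in ACT and 10 in N.

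**Figure D2:**
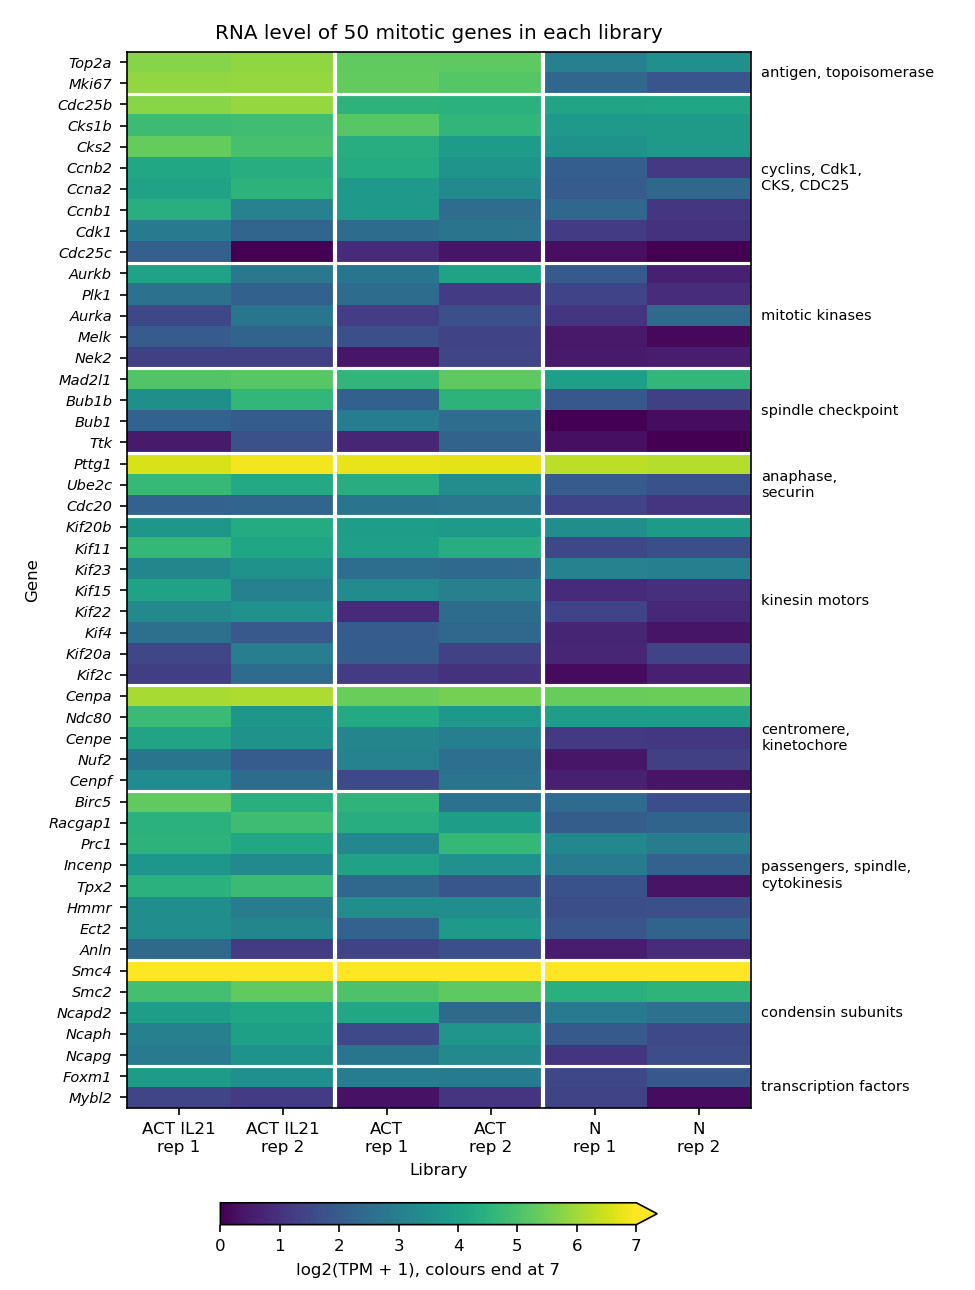
RNA level of each of the 50 members (rows, grouped by role and ordered by mean level) in each library (columns, ACT IL21, ACT and N from left to right), as log2(TPM + 1), with colours ending at 7. Most rows are darkest in the N libraries, while Smc4, Pttg1 and Cenpa are bright in every library.

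Differences were tested with limma on log2(TPM + 1) over 13311 genes that reached 1 TPM in 2 or more libraries, and a gene is called where its Benjamini-Hochberg adjusted p over those genes was below 0.05. Of the 50 members, 49 were tested. Cdc25c, a phosphatase that activates Cdk1, was left out by the filter, with 3.44 and 0 TPM in ACT IL21, 0.78 and 0.31 TPM in ACT, and 0.23 and 0 TPM in N. The tested members Nek2, Melk, Bub1, Ttk, Kif2c, Kif4, Kif15, Cenpf and Anln were below 1 TPM in both N libraries, so they passed the filter only through the other pools and had to differ from N in level. Each log2 fold change is a difference of log2(TPM + 1), so for low genes it is smaller than the ratio of TPM.

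Between ACT IL21 and N, 15 of the 49 tested members were higher, 0 were lower and 34 were not called. The 15 include Bub1, Kif15 and Cenpf, which passed the filter only through the other pools, so their calls are no independent support. Among all genes tested, 3.82% were higher and 1.26% lower in ACT IL21. The members' median log2 fold change was 1.52, against 0.1 over all genes tested, and over all 50 members without the filter it was 1.5. In 44 members both ACT IL21 libraries lay above both N libraries, which held for 31.5% of all genes tested, and in 1 member both lay below, which held for 19.9%. The 44 include the 9 tested members that were below 1 TPM in both N libraries. By limma, 40 tested members had an unadjusted p below 0.05, as had 2485 of the 13311 genes tested. Smc4 was the only member with a negative fold change.

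Between ACT and N, 10 of 49 were higher and 0 lower, where 4.15% of all genes tested were higher and 1.43% lower. Among the 10 are Bub1 and Kif15, which passed the filter only through the ICOS+ pools. The median was 1.21 (0.02 over all genes tested, and 1.15 over all 50 members without the filter). Both ACT libraries lay above both N libraries in 33 members and below them in 2 (Kif23 and Smc4), against 25.2% and 21.9% of all genes tested. Of the members below 1 TPM in both N libraries, all but Nek2 are among the 33. By limma, 26 members had an unadjusted p below 0.05, as had 2471 of the 13311 genes tested. These comparisons share the N libraries, so their values are not independent of each other.

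The number of calls depended on single libraries. In ACT IL21 against N, 4 members were higher without ACT IL21 replicate 1, 5 without ACT IL21 replicate 2, 7 without N replicate 1 and 5 without N replicate 2, while 22 were higher without either ACT library. In ACT against N, 4 were higher without ACT replicate 1, 10 without ACT replicate 2, 3 without either N library and 8 without either ACT IL21 library. Mki67 and Top2a were called in both comparisons in all 6 of these fits. In ACT IL21 against N, the calls of Cdc25b and Racgap1 were lost without ACT IL21 replicate 2 (adjusted p = 0.0575 and 0.0631 in limma), and that of Kif11 without ACT IL21 replicate 1 (adjusted p = 0.0573). The other members called in that comparison, Bub1, Ccna2, Ccnb2, Cenpe, Cenpf, Cks2, Foxm1, Kif15, Tpx2 and Ube2c, were each called in 2 or 3 of the 6 fits, with largest adjusted p-values between 0.0787 and 0.283. In ACT against N, Kif11 was called in 5 of 6 fits, Ccnb2 in 4, Bub1, Kif15 and Racgap1 in 3, Cenpe in 2, Ube2c in 1 and Hmmr in 0, with largest adjusted p-values between 0.0508 and 0.216.

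**Figure D3:**
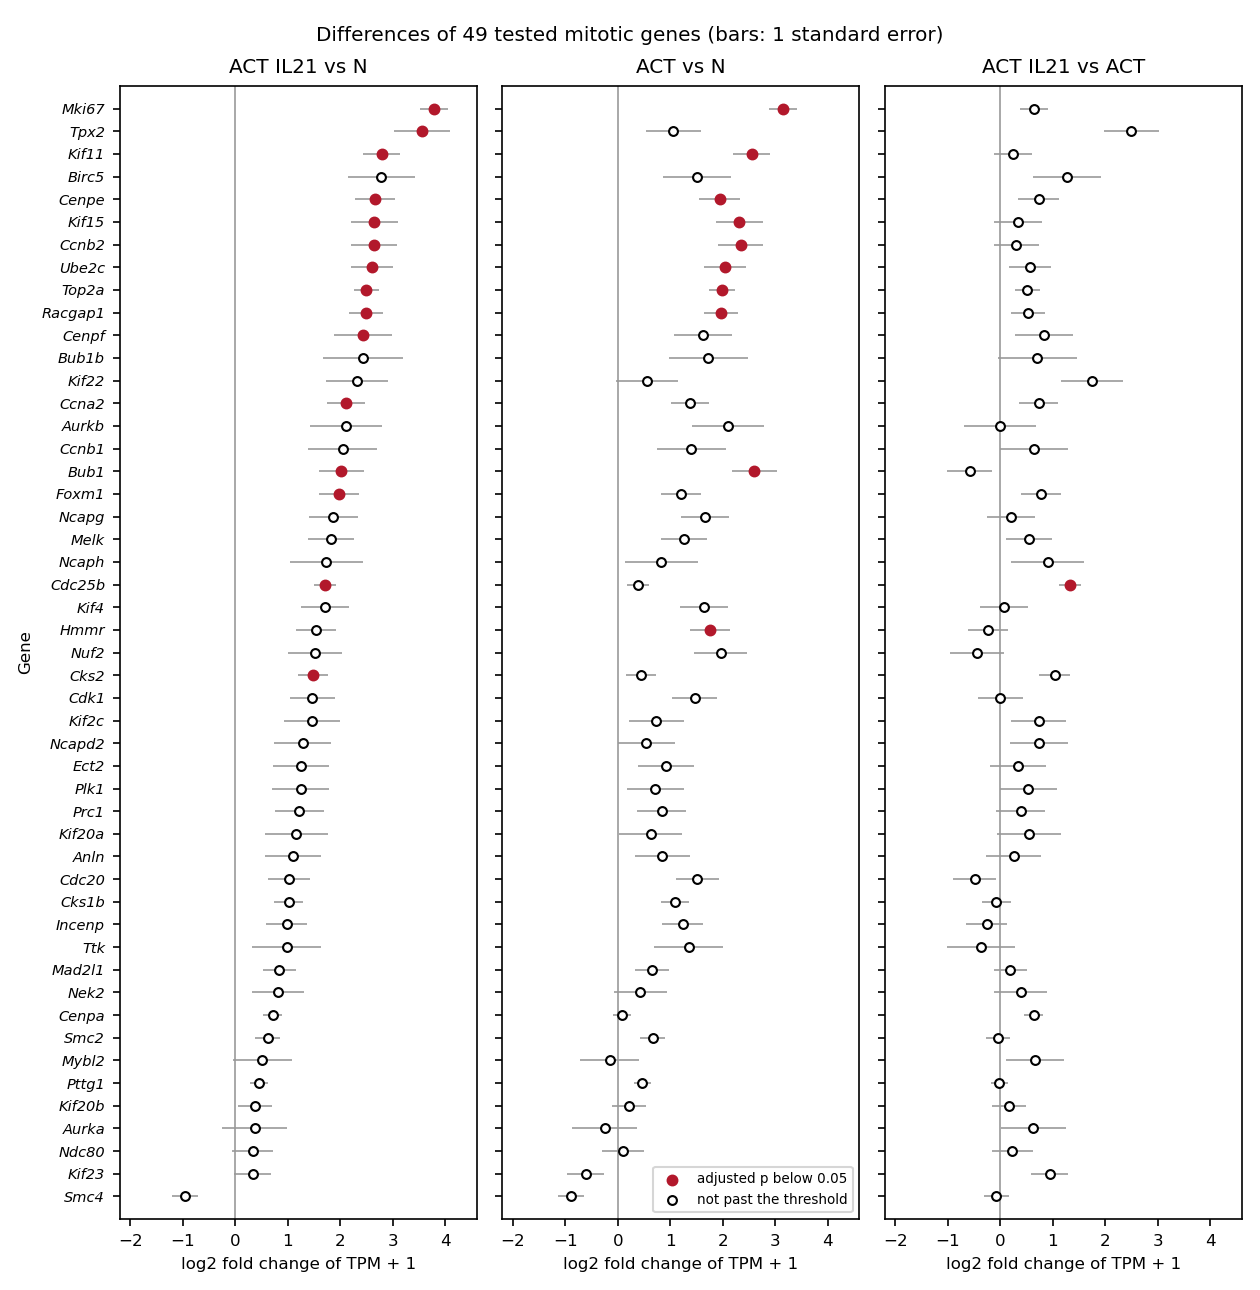
Log2 fold change of TPM + 1 for the 49 tested members in ACT IL21 vs N (left), ACT vs N (middle) and ACT IL21 vs ACT (right), ordered by the left panel; bars are 1 standard error, and filled points have an adjusted p below 0.05 in limma. There are 15 filled points on the left, 10 in the middle and 1, Cdc25b, on the right, and Smc4 is the only point left of 0 in the left panel.

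Mki67 and Top2a had the most stable differences from N. Mki67, the gene of the Ki-67 antigen that coats mitotic chromosomes (chromosome 7, 135689784 to 135716361, minus strand, GRCm38, protein-coding), was at 57.15 and 57.91 TPM in ACT IL21, 38.53 and 34.71 TPM in ACT, and 4.02 and 2.58 TPM in N. The 3 pools did not overlap. Mki67 rose 17.4-fold in ACT IL21 (log2 fold change 3.79 ± 0.27 SE, limma adjusted p = 0.000297) and 11.1-fold in ACT (3.15 ± 0.27, adjusted p = 0.000651) relative to N. Top2a, the topoisomerase that untangles sister chromatids (chromosome 11, 98992943 to 99024189, minus strand), was at 52.49 and 55.85 TPM in ACT IL21, 37.80 and 37.44 TPM in ACT, and 7.28 and 10.51 TPM in N. Its pools did not overlap either, and it rose 6.09-fold in ACT IL21 (2.5 ± 0.24, adjusted p = 0.0015) and 4.23-fold in ACT (1.98 ± 0.24, adjusted p = 0.00311).

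Among the cyclins, Cdk1, the CKS proteins and the CDC25 phosphatases, 4 of 7 tested members were higher in ACT IL21 than in N and 1 of 7 in ACT. Ccnb2, a mitotic B-type cyclin, was at 17.43 and 19.36 TPM in ACT IL21, 18.84 and 11.40 TPM in ACT, and 3.29 and 1.24 TPM in N. It was 8.12-fold higher in ACT IL21 (limma adjusted p = 0.0133) and 6.68-fold higher in ACT (adjusted p = 0.0203), and its ACT IL21 and ACT libraries overlapped. Ccna2, the cyclin of S phase and G2, was at 15.35 and 22.24 TPM in ACT IL21, 12.74 and 9.07 TPM in ACT, and 3.05 and 4.05 TPM in N. It rose in ACT IL21 (log2 fold change 2.11 ± 0.37, adjusted p = 0.0172), with 1.38 in ACT (adjusted p = 0.0758).

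Ccnb1, the main partner of Cdk1 at mitotic entry, varied between libraries of a pool. It was at 20.43 and 7.65 TPM in ACT IL21, 12.46 and 4.66 TPM in ACT, and 4.09 and 1.14 TPM in N, and was not called in either comparison (adjusted p = 0.139 and 0.311). Cdk1, the kinase itself, was at 6.33 and 3.90 TPM in ACT IL21, 4.53 and 5.50 TPM in ACT, and 1.31 and 1.03 TPM in N, with a log2 fold change of 1.47 in each comparison with N (adjusted p = 0.108 in ACT IL21 and 0.102 in ACT). Both ICOS+ pools lay above N in every library of Ccnb1 and Cdk1.

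The small CKS proteins, which help Cdk1 bind its substrates, differed in pattern. Cks2 was at 39.68 and 29.91 TPM in ACT IL21, 19.51 and 13.58 TPM in ACT, and 11 and 12.48 TPM in N. It rose in ACT IL21 (log2 fold change 1.48 ± 0.29, adjusted p = 0.0277), with 0.44 in ACT (adjusted p = 0.486). Cks1b was at 26.65 and 27.75 TPM in ACT IL21, 35.38 and 23.22 TPM in ACT, and 12.83 and 13.05 TPM in N (log2 fold change 1.02, adjusted p = 0.0839 in ACT IL21, and 1.09, adjusted p = 0.0618 in ACT). All 4 ICOS+ libraries lay above both N libraries for both genes.

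Cdc25b, a phosphatase that removes inhibitory phosphates from Cdk1, was the only member called between ACT IL21 and ACT. It lies on chromosome 2, 131186949 to 131198497, plus strand. Its levels were 53.22 and 58.46 TPM in ACT IL21, 22.15 and 21.38 TPM in ACT, and 15.98 and 16.82 TPM in N. ACT IL21 stood apart from both other pools, which lay close together. Cdc25b rose 3.40-fold in ACT IL21 relative to N (log2 fold change 1.71 ± 0.21, limma adjusted p = 0.00441) and 2.57-fold relative to ACT (1.32 ± 0.21, 95% interval 0.83 to 1.81, adjusted p = 0.0239). Between ACT and N the log2 fold change was 0.39 (adjusted p = 0.388). The call against ACT was lost in each of the 6 fits without 1 library, with adjusted p-values between 0.0561 and 0.19 and log2 fold changes between 1.25 and 1.39. The lowest p of these was without ACT replicate 1 and the highest without ACT IL21 replicate 2. The call was also lost without the intensity trend (adjusted p = 0.0575) and with only these 2 pools in the fit (adjusted p = 0.0574).

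**Figure D4:**
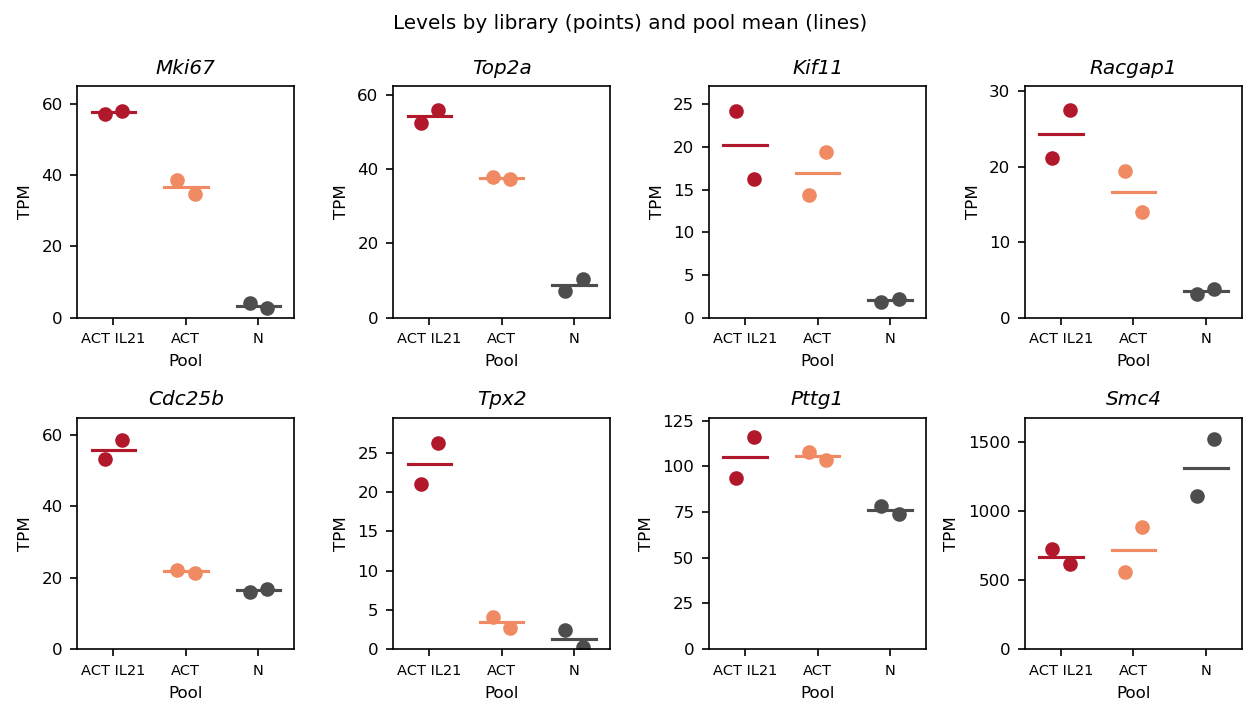
TPM of 8 members in each library (points) and the mean of each pool (lines), for ACT IL21, ACT and N from left to right, on axes that start at 0. Mki67, Top2a, Kif11 and Racgap1 are high in both ICOS+ pools, Cdc25b and Tpx2 are highest in ACT IL21, Pttg1 stands at 73.69 TPM or more in every library, and Smc4 is highest in N.

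The mitotic kinases were mostly low, and none of the 5 was called in either comparison with N, although 3 of them had an unadjusted p below 0.05 in limma for ACT IL21 and 2 for ACT. Aurkb, the kinase of the chromosomal passenger complex and the most abundant of them by the mean over the 6 libraries, was at 15.22 and 5.79 TPM in ACT IL21, 5.59 and 15.78 TPM in ACT, and 2.94 and 0.52 TPM in N. Its log2 fold change was 2.10 in both comparisons (adjusted p = 0.145 in ACT IL21 and 0.14 in ACT), and the libraries within each pool lay far apart.
Melk was at 3.04 and 3.73 TPM in ACT IL21, 2.26 and 1.72 TPM in ACT, and 0.39 and 0.10 TPM in N (log2 fold change 1.82, adjusted p = 0.0586 in ACT IL21). Plk1, which drives centrosome maturation and spindle assembly, was at 5.13 and 3.49 TPM in ACT IL21, 4.53 and 1.37 TPM in ACT, and 1.64 and 0.85 TPM in N. Aurka, the spindle pole kinase, overlapped between all pools, at 1.86 and 5.54 TPM in ACT IL21, 1.43 and 2.24 TPM in ACT, and 1.10 and 4.32 TPM in N. Nek2 reached at most 1.75 TPM.

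In the spindle checkpoint, which delays anaphase until every chromosome is attached, Bub1 was called in both comparisons with N. The Bub1 kinase gene was at 3.59 and 3.20 TPM in ACT IL21, 6.6 and 4.69 TPM in ACT, and 0 and 0.18 TPM in N. Its log2 fold changes were 2.02 ± 0.43 in ACT IL21 (limma adjusted p = 0.0381) and 2.60 ± 0.43 in ACT (adjusted p = 0.0128), and both ACT libraries lay above both ACT IL21 libraries, a difference that was not called (-0.58, 95% interval -1.58 to 0.41, adjusted p = 0.588). Bub1b was at 10.22 and 23.72 TPM in ACT IL21, 3.52 and 22.05 TPM in ACT, and 2.79 and 1.52 TPM in N, and was not called (adjusted p = 0.129 in ACT IL21 and 0.277 in ACT). Mad2l1, which carries the checkpoint signal and had the highest mean of the 4 over the 6 libraries, was at 33.04 and 35.01 TPM in ACT IL21, 23.46 and 37.42 TPM in ACT, and 14.47 and 23.71 TPM in N (log2 fold change 0.84, adjusted p = 0.205 in ACT IL21). Ttk was at 0.42 and 2.36 TPM in ACT IL21, 0.70 and 3.70 TPM in ACT, and 0.23 and 0 TPM in N.

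Of the genes that trigger or hold back anaphase, Ube2c, the ubiquitin-conjugating enzyme of the anaphase-promoting complex, was called in both comparisons. It was at 24.64 and 18.53 TPM in ACT IL21, 19.74 and 9.95 TPM in ACT, and 2.99 and 2.40 TPM in N, which made it 8.01-fold higher in ACT IL21 (limma adjusted p = 0.0103) and 5.51-fold higher in ACT (adjusted p = 0.0263). Cdc20, the activator of that complex, was at 3.60 and 3.91 TPM in ACT IL21, 5.52 and 5.79 TPM in ACT, and 1.65 and 1.06 TPM in N. Its log2 fold changes were 1.02 (adjusted p = 0.228) in ACT IL21 and 1.51 (adjusted p = 0.0801) in ACT, and its ACT libraries lay above its ACT IL21 libraries.
Pttg1, the gene of securin, which holds separase inactive until anaphase, was abundant in every pool. It was at 93.79 and 116.32 TPM in ACT IL21, 107.99 and 103.37 TPM in ACT, and 78.39 and 73.69 TPM in N, with log2 fold changes of 0.45 ± 0.17 in ACT IL21 (adjusted p = 0.196) and 0.47 ± 0.17 in ACT (adjusted p = 0.175). All ICOS+ libraries lay above N for Pttg1, by a ratio of means of 1.38 in ACT IL21 and 1.39 in ACT.

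Among 8 kinesin motors, Kif11 and Kif15 were called in both comparisons with N. Kif11, the motor that pushes spindle poles apart (chromosome 19, 37376403 to 37421859, plus strand), was at 24.26 and 16.29 TPM in ACT IL21, 14.37 and 19.45 TPM in ACT, and 1.87 and 2.21 TPM in N. It rose 9.94-fold in ACT IL21 (log2 fold change 2.78 ± 0.36, limma adjusted p = 0.00506) and 8.29-fold in ACT (2.55 ± 0.36, adjusted p = 0.00594), and the ICOS+ pools overlapped. Kif15, a motor that can take over from Kif11, was at 15.48 and 7.48 TPM in ACT IL21, 9.48 and 7.35 TPM in ACT, and 0.82 and 0.95 TPM in N. It was 13-fold higher in ACT IL21 (adjusted p = 0.0158) and 9.51-fold higher in ACT (adjusted p = 0.025).
The other motors were not called. Kif22, a chromosome-arm motor, was at 8.73 and 10.72 TPM in ACT IL21, 0.82 and 4.55 TPM in ACT, and 1.64 and 0.76 TPM in N (log2 fold change 2.31, adjusted p = 0.0731 in ACT IL21). Kif4 was at 4.95 and 2.86 TPM in ACT IL21, 3.11 and 4.13 TPM in ACT, and 0.66 and 0.31 TPM in N, with adjusted p = 0.0855 in ACT IL21 and 0.0874 in ACT. Kif20b, the most abundant motor by the mean over the 6 libraries, was at 12.07 and 18.66 TPM in ACT IL21, 14.03 and 12.63 TPM in ACT, and 9.94 and 13.01 TPM in N, and overlapped between the pools. Kif23, a motor of the central spindle, was at 8.33 and 10.96 TPM in ACT IL21, 4.75 and 4.26 TPM in ACT, and 7.63 and 7.18 TPM in N, so that both ACT libraries lay below both N libraries (log2 fold change -0.61, adjusted p = 0.425). Kif20a reached at most 6.90 TPM and Kif2c at most 4.46 TPM, both in ACT IL21 replicate 2.

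Of 5 centromere and kinetochore genes, Cenpe and Cenpf were called in ACT IL21 and Cenpe in ACT. Cenpe, a kinetochore motor that moves chromosomes to the spindle equator, was at 15.94 and 10.89 TPM in ACT IL21, 8.07 and 7.11 TPM in ACT, and 1.28 and 1.2 TPM in N. It was 10.8-fold higher in ACT IL21 (limma adjusted p = 0.00803) and 6.12-fold higher in ACT (adjusted p = 0.0272), and no pools overlapped. Cenpf was at 9.49 and 4.59 TPM in ACT IL21, 1.90 and 5.47 TPM in ACT, and 0.52 and 0.31 TPM in N, and rose in ACT IL21 (log2 fold change 2.44 ± 0.55, adjusted p = 0.0476), with 1.62 in ACT (adjusted p = 0.159). The Cenpf call was lost under both rescalings (adjusted p = 0.0528 by the upper quartile and 0.0507 without ribosomal and receptor genes), without the intensity trend (adjusted p = 0.065) and without the filter (adjusted p = 0.127).
Cenpa, the histone variant that marks centromeres, was at 66.87 and 69.25 TPM in ACT IL21, 41.36 and 45.81 TPM in ACT, and 40.35 and 42.12 TPM in N. Both ACT IL21 libraries lay above all others, with log2 fold changes of 0.71 ± 0.18 relative to N (adjusted p = 0.065) and 0.63 relative to ACT (95% interval 0.23 to 1.04, adjusted p = 0.136), neither called. Between ACT and N its log2 fold change was 0.08 and became -0.03 when libraries were scaled by the upper quartile. Of the microtubule-binding NDC80 complex, Ndc80 overlapped between pools, at 26.29 and 12.04 TPM in ACT IL21, 18.38 and 12.35 TPM in ACT, and 13.82 and 14.19 TPM in N. Its partner Nuf2 was at 5.61 and 3.13 TPM in ACT IL21, 7.60 and 4.84 TPM in ACT, and 0.33 and 1.51 TPM in N (adjusted p = 0.158 in ACT IL21 and 0.0725 in ACT).

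Among 8 chromosomal passengers, spindle factors and cytokinesis factors, Racgap1 and Tpx2 were called in ACT IL21, and Racgap1 and Hmmr in ACT. Racgap1, which with Kif23 forms the centralspindlin complex of the cleavage plane (chromosome 15, 99620496 to 99651656, minus strand), was at 21.20 and 27.47 TPM in ACT IL21, 19.42 and 13.96 TPM in ACT, and 3.15 and 3.82 TPM in N. It rose 6.98-fold in ACT IL21 (log2 fold change 2.49 ± 0.33, limma adjusted p = 0.0054) and 4.79-fold in ACT (1.97 ± 0.33, adjusted p = 0.013).
Tpx2, which activates Aurora A and seeds spindle microtubules (chromosome 2, 152847964 to 152895321, plus strand), was at 21.00 and 26.28 TPM in ACT IL21, 4.14 and 2.67 TPM in ACT, and 2.38 and 0.29 TPM in N. ACT IL21 stood far above both other pools. Tpx2 was 17.7-fold higher in ACT IL21 than in N (log2 fold change 3.55 ± 0.53, adjusted p = 0.00905), with 1.06 between ACT and N (adjusted p = 0.344). Against ACT the ratio of means was 6.94 and the log2 fold change 2.5 ± 0.53 (95% interval 1.27 to 3.72), which did not pass (adjusted p = 0.0647) but was called with only these 2 pools in the fit. The call against N was lost without ACT IL21 replicate 1 or 2 or without N replicate 2, with adjusted p-values of 0.0687, 0.0873 and 0.0546.
Hmmr, a microtubule-binding spindle protein, was at 10.21 and 6.71 TPM in ACT IL21, 9.98 and 9.82 TPM in ACT, and 2.19 and 2.26 TPM in N (log2 fold change 1.53, adjusted p = 0.0668 in ACT IL21, and 1.76 ± 0.38, adjusted p = 0.0385 in ACT). Birc5, the survivin subunit of the passenger complex, had the highest mean of this group over the 6 libraries and missed the threshold in ACT IL21. It was at 38.37 and 20.27 TPM in ACT IL21, 22.49 and 5.13 TPM in ACT, and 4.47 and 2.23 TPM in N (log2 fold change 2.78 ± 0.65, adjusted p = 0.0521 in ACT IL21, and 1.51, adjusted p = 0.264 in ACT). Birc5 passed in ACT IL21 against N without ACT replicate 1 or 2 (adjusted p = 0.0109 and 0.00942), with only these 2 pools in the fit (adjusted p = 0.0114) and with a filter on a mean of at least 1 TPM (adjusted p = 0.0436). Incenp, Prc1, Ect2 and Anln had log2 fold changes between 0.98 and 1.25 in ACT IL21 and between 0.84 and 1.24 in ACT, none called. In ACT IL21 all 8 genes of this group had both libraries above both N libraries.

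The transcription factor Foxm1, which switches on many G2 and mitotic genes, was at 13.71 and 10.42 TPM in ACT IL21, 6.67 and 6.47 TPM in ACT, and 1.88 and 2.74 TPM in N. The 3 pools did not overlap, and Foxm1 rose 5.22-fold in ACT IL21 relative to N (log2 fold change 1.98 ± 0.38, limma adjusted p = 0.0254), with 1.21 in ACT (adjusted p = 0.128). Mybl2, which encodes B-Myb, was low, at 1.78 and 1.33 TPM in ACT IL21, 0.26 and 1.06 TPM in ACT, and 1.73 and 0.17 TPM in N. Its N libraries overlapped both other pools, and both ACT IL21 libraries lay above both ACT libraries.

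Between ACT IL21 and ACT, 1 of 49 tested members was higher and 0 were lower by limma, beside 0.796% higher and 1.15% lower of all genes tested. The members' median log2 fold change was 0.51, against 0.08 over all genes tested. Fold changes were positive for 37 of 49 members and for 7517 of the 13311 genes tested. Both ACT IL21 libraries lay above both ACT libraries in 15 members and below them in 2 (Bub1 and Cdc20), against 24.5% and 17.3% of all genes tested. By limma, 7 members had an unadjusted p below 0.05, as had 1978 of the 13311 genes tested, a similar share. For Mki67 the difference was 0.64 (95% interval 0.02 to 1.26, adjusted p = 0.318), and for Top2a it was 0.51 (95% interval -0.05 to 1.08, adjusted p = 0.38). Beside Tpx2 and Cdc25b, the largest values were those of Kif22 (1.75, adjusted p = 0.22), Birc5 (1.27, adjusted p = 0.415) and Cks2 (1.04, adjusted p = 0.14). For Pttg1 the value was -0.02, with a 95% interval of -0.40 to 0.37. The moderated F test of limma over the 3 pools called 14 members, where it called 7.03% of all genes tested.

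The condensin genes, whose proteins compact mitotic chromosomes, gave no call in any comparison, although all 5 had an unadjusted p below 0.05 in limma for ACT IL21 against N and 3 for ACT against N. Smc2, an ATPase subunit shared by both condensin complexes, was at 29.31 and 37.98 TPM in ACT IL21, 31.97 and 37.25 TPM in ACT, and 20.67 and 22.28 TPM in N, with all ICOS+ libraries above N (log2 fold change 0.61, adjusted p = 0.203 in ACT IL21, and 0.66, adjusted p = 0.166 in ACT). Ncapg was at 6.55 and 10.78 TPM in ACT IL21, 5.54 and 9.20 TPM in ACT, and 1.11 and 2.17 TPM in N (adjusted p = 0.0647 in ACT IL21 and 0.0868 in ACT). Ncapd2 and Ncaph had log2 fold changes of 1.28 and 1.73 in ACT IL21, and of 0.54 and 0.83 in ACT, with libraries of ACT that were 16.84 and 4.31 TPM for Ncapd2 and 1.91 and 11.64 TPM for Ncaph.

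Smc4, the partner ATPase of Smc2, ran the other way. It lies on chromosome 3, 69004738 to 69034623, plus strand, and was at 723.21 and 615.02 TPM in ACT IL21, 557.47 and 883.43 TPM in ACT, and 1110.01 and 1519.19 TPM in N. Both N libraries lay above all 4 ICOS+ libraries. The log2 fold change was -0.96 ± 0.25 in ACT IL21 (95% interval -1.53 to -0.39, limma adjusted p = 0.0731) and -0.89 ± 0.25 in ACT (95% interval -1.46 to -0.32, adjusted p = 0.0864), so Smc4 was not called. Without ACT replicate 1 or 2 it passed in ACT IL21 against N (adjusted p = 0.0228 and 0.0242), and without ACT replicate 2 in ACT against N (-1.22, adjusted p = 0.0265). Smc4 exceeded every other member in every library. Its share of the summed members was 44.5% and 40.8% in ACT IL21, 45.7% and 57.5% in ACT, and 77.9% and 82.8% in N. With Smc4 included, the sum of all 50 members was 1624 and 1507 TPM in ACT IL21, 1219 and 1536 TPM in ACT, and 1425 and 1835 TPM in N, and the pools overlapped. By GENCODE M21, no exon of Smc4 overlaps an exon of its neighbours Trim59 and Ift80.

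Several other members were already transcribed in N. After Smc4, the highest means in N were those of Pttg1 (76.04 TPM), Cenpa (41.2 TPM), Smc2 (21.5 TPM), Mad2l1 (19.1 TPM), Cdc25b (16.4 TPM), Ndc80 (14.0 TPM), Cks1b (12.9 TPM) and Cks2 (11.7 TPM). In ACT IL21, Mki67 at 57.5 TPM, Cdc25b at 55.8 TPM and Top2a at 54.2 TPM followed Smc4, Pttg1 and Cenpa. When members were divided by a mean of 20 TPM over the 6 libraries, the 10 more abundant ones had median log2 fold changes of 0.93 in ACT IL21 and 0.56 in ACT relative to N, and the 39 others had 1.70 and 1.35. Of the members called in ACT IL21 against N, 4 were among the more abundant and 11 among the others.

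Other genes of the cell cycle were read from lists, beside the same background shares. Of 57 tested members of the second list of mitotic genes, 5 were higher in ACT IL21 than in N by limma (Casc5, Cdca8, Aspm, Ckap2l and Pbk), 2 in ACT (Cdca8 and Aspm), and 0 were lower, with medians of 1.11 and 0.81. The shares called higher were 8.77% and 3.51%, beside 3.82% and 4.15% of all genes tested. In ACT the share called was thus no higher than that of all genes. Cdca8, Aspm, Ckap2l and Pbk were below 1 TPM in both N libraries. They passed the filter only through the other pools, so their calls are no independent support. Unadjusted p-values in limma were below 0.05 for 24 and 19 genes of the list, and for 2485 and 2471 of the 13311 genes tested. Cdca8, the borealin subunit of the passenger complex, was at 9.11 and 11.62 TPM in ACT IL21, 5.65 and 4.90 TPM in ACT, and 0.99 and 0.45 TPM in N (log2 fold change 2.73, adjusted p = 0.0095 in ACT IL21, and 1.88, adjusted p = 0.0399 in ACT). The summed TPM of this list was 789.7 and 700.7 in ACT IL21, 637.7 and 675.1 in ACT, and 459.4 and 465.9 in N.

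Of 61 genes of DNA replication and the G1/S transition, 6 were higher in ACT IL21 than in N (Tyms, Cdk6, Chek1, Rrm2, Lig1 and Mcm6) and 3 in ACT (Cdk6, Ccnd2 and Slbp), with medians of 0.60 and 0.35 and 0 lower in limma. The shares called higher were 9.84% and 4.92%, beside 3.82% and 4.15% of all genes tested. The share in ACT was thus near that of all genes. Chek1 was below 1 TPM in both N libraries and passed the filter only through the other pools, so its call is no independent support. Unadjusted p-values in limma were below 0.05 for 22 and 20 of the 61, and for 2485 and 2471 of the 13311 genes tested. Tyms, which makes thymidylate for DNA synthesis, was at 41.35 and 59.64 TPM in ACT IL21, 23.27 and 15.99 TPM in ACT, and 8.02 and 9.33 TPM in N (log2 fold change 2.39, adjusted p = 0.00461 in ACT IL21). Ccnd2, a G1 cyclin, ran against the members between the ICOS+ pools, at 122.56 and 114.33 TPM in ACT IL21, 264.15 and 220.16 TPM in ACT, and 147.59 and 138.82 TPM in N (-1.02, adjusted p = 0.0188 for ACT IL21 relative to ACT).

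Regulators of these promoters, and complexes the members work with, were read in the same way. The 15 subunits and regulators of the anaphase-promoting complex had 0 calls in limma in each comparison, medians of 0.04 in ACT IL21 and 0.16 in ACT against N, and 3 and 2 unadjusted p-values below 0.05. Anapc1, the most abundant of them by the mean over the 6 libraries, was at 110.67 and 101.23 TPM in ACT IL21, 87.46 and 114.82 TPM in ACT, and 105.04 and 115.07 TPM in N. The 9 cohesin genes likewise had 0 calls, medians of -0.22 and -0.15, and 0 and 2 unadjusted p-values below 0.05. Of all 13311 genes tested, 2485 and 2471 had such a p-value in limma. In the list of MuvB, RB family and NF-Y genes, Rbl2, an RB-family repressor of quiescent cells, was at 116.16 and 110.17 TPM in ACT IL21, 271.7 and 235.81 TPM in ACT, and 96.93 and 94.58 TPM in N. Rbl2 was higher in ACT than in N (1.39, adjusted p = 0.00166) and lower in ACT IL21 than in ACT (-1.16, adjusted p = 0.0105), and was the only 1 of 15 called. Among CDK inhibitors and antiproliferative genes, Cdkn2c, an inhibitor of the G1 kinases Cdk4 and Cdk6, was the only 1 of 13 called. It was at 24.78 and 35.0 TPM in ACT IL21, 18.63 and 22.03 TPM in ACT, and 5.39 and 2.95 TPM in N, higher in ACT IL21 (2.60, adjusted p = 0.00574) and in ACT (2.08, adjusted p = 0.0132).

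**Figure D5:**
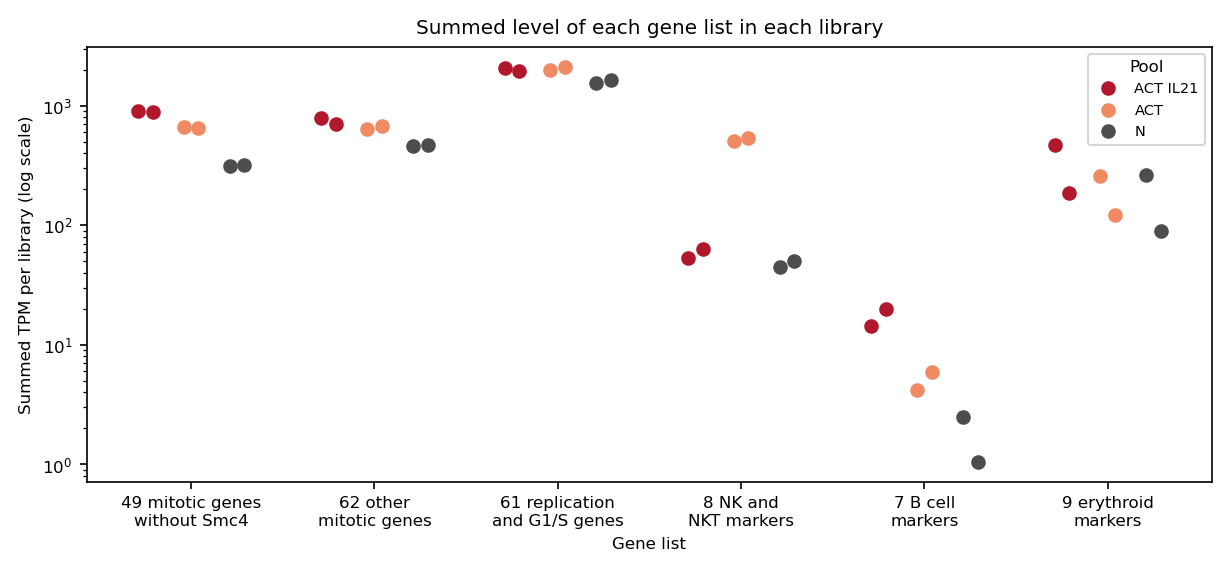
Summed TPM per library (log scale) of the 49 mitotic genes without Smc4, 62 other mitotic genes, 61 replication and G1/S genes, and markers of NK and NKT cells (8), B cells (7) and erythroid cells (9); each point is 1 library of ACT IL21, ACT or N. The 49 mitotic genes stand at 892.4 TPM or more in ACT IL21, at 652.9 to 661.3 TPM in ACT and at 315.8 TPM or less in N, while NK and NKT markers stand apart in ACT.

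Markers of other cells also differed between pools, and their part in the results was not tested. The 8 markers of CD4 T cells summed to 5776 and 5860 TPM in ACT IL21, 5069 and 4207 TPM in ACT, and 4306 and 3714 TPM in N, with Cd4 and Cd28 higher in ACT IL21 than in N. In ACT, Cd4 was at 267.6 and 236.07 TPM, below both N libraries at 357.93 and 315.56 TPM (log2 fold change -0.42, limma adjusted p = 0.158). Cd4 was higher in ACT IL21 than in ACT (1.13, adjusted p = 0.0103). The 8 markers of NK and NKT cells summed to 53.16 and 62.89 TPM in ACT IL21, 509.1 and 534.1 TPM in ACT, and 44.93 and 50.07 TPM in N. Klrb1c, Klre1, Zbtb16 and Xcl1 were higher in ACT than in N, 4 of 7 tested, beside 4.15% of all genes tested. Klre1 passed the filter only through ACT, and Zbtb16 was below 1 TPM in both N libraries. Their calls are thus no independent support. Ncr1, an NK cell receptor gene, was at 1.06 TPM or less. In ACT IL21 against N, Klrb1c was higher and Klrd1 lower. Of the 7, 5 were lower in ACT IL21 than in ACT, Klre1 among them, beside 1.15% of all genes tested.
The 7 B cell markers summed to 14.32 and 19.9 TPM in ACT IL21, 4.22 and 5.88 TPM in ACT, and 2.47 and 1.05 TPM in N. Cd22 made up most of that, at 13.09 and 17.45 TPM in ACT IL21 (log2 fold change 3.96, limma adjusted p = 0.00344 relative to N). It was at 0 and 0.07 TPM in N, so it passed the filter only through the other pools. Pax5 was listed at 0 in every library and Ms4a1 was at 0.24 TPM or less. The 5 germinal centre B and plasma cell markers summed to 8.44 and 16.27 TPM in ACT IL21, 7.76 and 4.36 TPM in ACT, and 2.04 and 0.66 TPM in N. S1pr2 was called in ACT IL21, and Mzb1 was listed at 0 throughout.
Erythroid precursors divide too, and their 9 markers summed to 472.3 and 186.3 TPM in ACT IL21, 259.2 and 121 TPM in ACT, and 262.1 and 90.17 TPM in N. None of the 7 tested was called and 0 had an unadjusted p below 0.05 in limma, the pools overlapped, replicate 1 exceeded replicate 2 in each pool, and Klf1, an erythroid transcription factor gene, was at 0.5 TPM or less. The 10 myeloid and dendritic markers summed to 54.7 and 55.08 TPM in ACT IL21, 72.27 and 55.73 TPM in ACT, and 36.77 and 30.32 TPM in N, with Cst3 called in ACT and S100a8, S100a9 and Siglech listed at 0 in every library. The CD8 markers summed to 9.88 and 3.41 TPM in ACT IL21, 5.59 and 7.41 TPM in ACT, and 27.04 and 19.03 TPM in N. Cd8a was at 0.36 TPM or less. Cd8b1 made up most of the sum, at 26.68 and 18.73 TPM in N. Its log2 fold change relative to N was -1.76 in ACT IL21 and -1.65 in ACT, not called (limma adjusted p = 0.0863 and 0.097).

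Some members share sequence with other genes, so their estimates are less certain. Transcripts of Ccnb1, Cks2, Mad2l1, Mki67 and Mybl2 match a transcript of another gene at 95% identity or more over at least 200 bases in GENCODE M21. Of these copies, Gm12891, which resembles Cks2, reached 7.92 TPM in the table, and Gm15452 (Cks2) and Gm12856 (Ccnb1) were listed at 0. Exons of 15 members overlap those of another gene, and for 11 of them the other gene was in the table. The widest overlap was that of Kif20a with Cdc23 on the opposite strand, over 29.3% of the exon bases of Kif20a, and Cdc23 reached 77.21 TPM. Of the called members, Ube2c overlaps Tnnc2 over 22.8% of its exon bases (Tnnc2 was listed at 0), Ccna2 overlaps Exosc9 over 12.5% (up to 44.44 TPM), Cdc25b overlaps Spef1 over 2.5% (up to 1.09 TPM), and Top2a and Foxm1 overlap genes over at most 2.5%. The strand setting is not given in the sources used here, and without strand, reads from such overlaps cannot be told apart.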

How the data were processed

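Polyadenylated RNA of 6 libraries was amplified with the NuGEN Ovation kit, per the labels' protocols. The authors deposited 1 table of gene-level TPM, 38355 entries in 6 library columns. Per the submitters' processing notes, reads were handled with Trimmomatic, Bowtie and RSEM on GRCm38, with no tool versions. What annotation, strand setting and depth lie behind the values is not given in the sources used here, so no counting interval is given. RSEM divides reads that match several genes by estimation, and a fixed total lowers all other genes when abundant ones rise.

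Entries with a repeated symbol (139) were summed, without further scaling. limma 3.58.1 in R 4.3.3 was run on log2(TPM + 1), pseudocount 1, for the 13311 genes that reached 1 TPM in 2 or more libraries. All 6 libraries entered 1 model with a term for the pool and an intensity trend (3 residual and 4.841 prior degrees of freedom), and tests were two-sided. P-values were adjusted by Benjamini-Hochberg over the genes tested in each comparison, with a threshold of 0.05. The script was tested on simulated data. Intervals are 95%. Errors of fold changes are standard errors.

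Positions came from GENCODE M21, similar transcripts from BLAST 2.17.0 and promoters from RefSeq (GRCm38.p6). Scripts ran in Python 3.11.15 with pandas 2.3.3 and matplotlib 3.10.9. The members and lists were chosen with earlier results of these data known. Named genes are all members, called or most abundant in their role group in full, and of the other lists called genes or the most abundant one. Alternatives changed the pseudocount, filter, scaling, trend, replicate block, the pools in the fit and the libraries. Values of some marker genes are not reported here.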

Additional observations from a re-analysis of the deposited data

How the results depend on the processing

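The 15 members higher in ACT IL21 than in N and the 10 higher in ACT numbered 8 and 5 without a filter on low values, and with only the compared pools in the fit they numbered 21 and 6. The single member higher in ACT IL21 than in ACT, Cdc25b, was not called without the intensity trend (0 members), and with only those pools in the fit Tpx2 was called in its place. Members called lower in ACT IL21 than in N became 1, Smc4, under the replicate block and with only the compared pools in the fit. The F test called 6 members without a filter. Calls over all genes tested numbered 410, 469 and 124 without a filter (ACT IL21 against N, ACT against N, ACT IL21 against ACT), where 677, 743 and 259 were called with it, and 137 for ACT IL21 against ACT with only those pools in the fit. The members' medians became 1.74 and 1.35 with a pseudocount of 0.5, and 2.06 and 1.59 with 0.1, in ACT IL21 and in ACT against N. The direction of Cenpa in ACT against N turned to -0.032 under upper quartile scaling, which moved the median of all genes in ACT IL21 against N to -0.03 where it was 0.10. Of the alternatives for single members, 593 stayed on the same side of the threshold with the same direction, 15 passed it, 96 lost it and 1 turned round; the causes were not tested.

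Leaving out 1 library at a time gave 4 to 22 members higher in ACT IL21 than in N, 3 to 10 in ACT than in N and 0 to 0 in ACT IL21 than in ACT, and 0 to 1, 0 to 1 and 0 to 0 lower. The medians ran from 1.39 to 1.69, 1.10 to 1.31 and 0.31 to 0.51, the F test called 5 to 20 members, and all genes called ran from 169 to 903, 260 to 678 and 32 to 202. A pool left with 1 library is assumed to vary like the others.

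Replicate numbers are shared between pools, but deviations of same-numbered libraries correlated at 0.00 (ACT IL21 and ACT), -0.00 (ACT IL21 and N) and 0.21 (ACT and N) across genes. Since not every pair of pools exceeded 0.1, the libraries were taken to share only a number, although some sums and members were higher in the same replicate of all 3 pools. With the replicate block, 16, 10 and 1 members were higher and the F test called 17; Birc5, Ccnb1, Ncapg and Smc4 were gained and Bub1 and Cenpf lost in ACT IL21 against N.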

Other observations

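Replicate 1 exceeded replicate 2 in all 3 pools for 7 members, Ccnb1, Cdc25c, Plk1, Ube2c, Cenpe, Birc5 and Incenp, and replicate 2 exceeded replicate 1 in all 3 pools for 6, Aurka, Nek2, Mad2l1, Cenpa, Smc2 and Ncapg. Some members do so in unpaired libraries too, and the share over all genes was not counted, so no pairing is read from them. Of the genes beside Smc4, Ift80 was at 59.16 and 53.63 TPM in ACT IL21, 75.28 and 97.15 TPM in ACT, and 141.61 and 169.34 TPM in N, so that both N libraries were highest, as for Smc4. Trim59, on the other side of Smc4, was at 62.64 and 47.22 TPM in ACT IL21, 46.56 and 49.69 TPM in ACT, and 54.44 and 55.09 TPM in N, and its pools overlapped.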
